A study of Rattus norvegicus with 15 samples.

Results

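Mmp2, Mmp3, Mmp14 and Timp1 are 3 matrix metalloproteinase genes and the gene of a metalloproteinase inhibitor, and their transcript levels were followed along the rat Achilles tendon. They were taken as 4 named Ensembl genes of the 32883 genes counted: ENSRNOG00000016695 (Mmp2), ENSRNOG00000032626 (Mmp3), ENSRNOG00000010947 (Mmp14) and ENSRNOG00000010208 (Timp1). All 4 passed the filter on low counts. The rule that names them uses no measured value, but they were chosen with earlier results of these data known. Counts of members that passed are therefore not those of an unselected set. The animals were 5 healthy, untreated male Sprague-Dawley rats aged 8 weeks. The tendon was cut free below the muscle-tendon junction and above its attachment to bone, then split into proximal, middle and distal segments of equal length, and matching segments of the left and right limb were pooled. Each rat gave 1 poly(A) RNA library per segment, 15 in all, so that segments could be compared within animals.

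Matrix metalloproteinases are zinc-dependent enzymes that cut proteins of the extracellular matrix, and they are made as inactive proenzymes. Mmp14, which is anchored in the cell membrane, cuts fibrillar collagen and activates pro-Mmp2 at the cell surface. Mmp2 (gelatinase A) is secreted and degrades denatured collagen, and Mmp3 (stromelysin-1) is secreted, cuts proteoglycans and fibronectin and can activate other proenzymes. Timp1 is a secreted inhibitor that blocks most soluble metalloproteinases and blocks Mmp14 poorly. In tendon these enzymes and inhibitors take part in the turnover and repair of the collagen matrix. Transcript counts do not measure the activity of these proteins.

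Library totals were 23530376 to 30178952 counts in distal, 18866801 to 27817554 in middle and 15413963 to 22205927 in proximal segments, so depth was lower toward the proximal end, as were the levels below, and its part in them was not tested. Levels are given as CPM, counts relative to library size, scaled between libraries by edgeR's TMM factors. The lowest count of any member in any library was 181, for which counting error alone is 7.43%. The median level of 112 genes that are high at the proximal end, chosen in rats 3 and 4 from these data, was 0.510 to 0.652 CPM in the distal libraries, 0.707 to 12.1 CPM in the middle ones and 0.579 to 106 CPM in the proximal ones. The highest middle value was that of rat 5 and the lowest proximal value that of rat 2. The labelled tissue was not checked against tendon markers, because the count table carries no gene symbols. In whole segments, fewer cells of a type and less RNA per cell cannot be told apart.

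Transcripts of all 4 genes were most abundant in the distal segment and fell toward the proximal end (quasi-likelihood test in edgeR, blocked by rat, Benjamini-Hochberg adjustment over 15037 genes). From distal to proximal tendon, Mmp3 fell 4.51-fold, Mmp14 2.42-fold, Mmp2 2.23-fold and Timp1 2.21-fold. The share of all genes tested that passed in this direction was 19.7%. The proximal value was the lower one in 5 of 5 rats for all 4 members, as for 21.9% of all genes. For Mmp3 in rat 1, however, the ends differed by only -0.04 log2 units, which is within counting error. The proximal libraries lay below every distal library for 3 of 4 members, Mmp2, Mmp14 and Timp1, and for 12.6% of all genes. The median log2 fold change over all genes was 0.02, and 1.20% of them had a lower value than Mmp3, 3.88% a lower value than Mmp14, 4.56% than Mmp2 and 4.61% than Timp1.

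**Figure D1:**
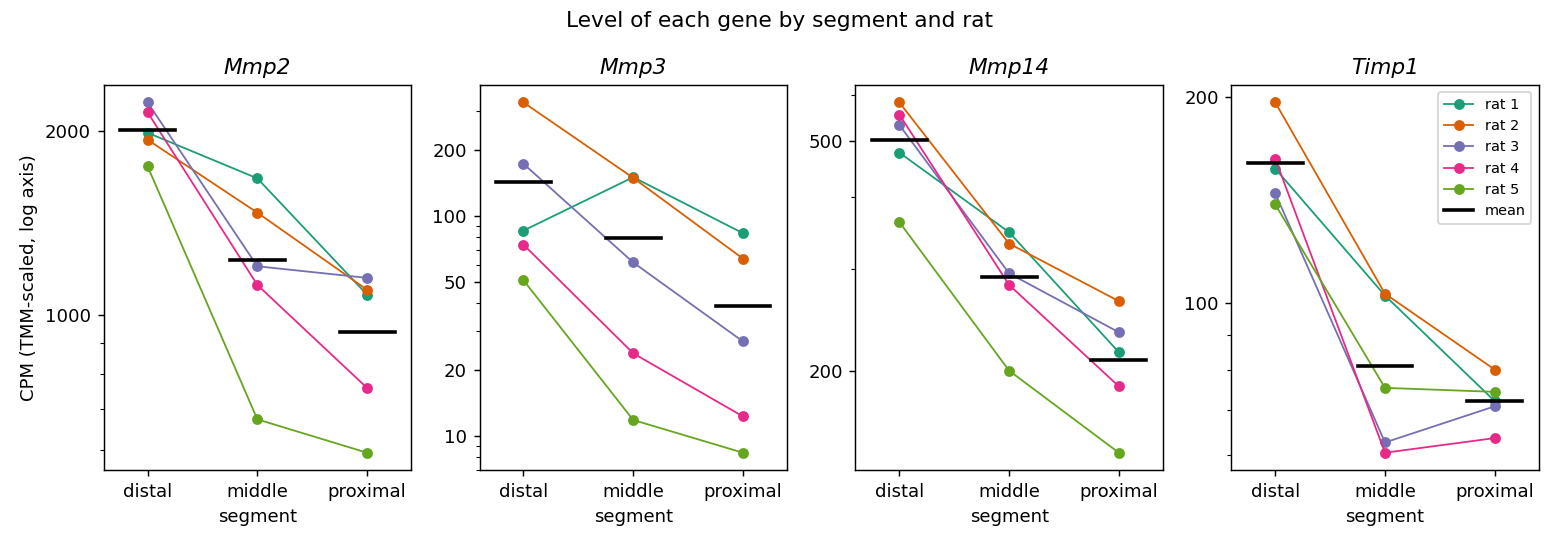
Level of each gene in CPM (log axis) in the distal, middle and proximal segment, with 1 coloured line per rat and a black bar at the mean of 5 rats. The 5 distal points of Mmp2, Mmp14 and Timp1 lie above all middle and proximal points, whereas the Mmp3 line of rat 1 rises from 85.6 CPM in distal to 150 CPM in middle tendon.

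Mmp14, the membrane-anchored enzyme, fell step by step in every rat. In distal tendon it was measured at 477, 582, 532, 555 and 361 CPM in rats 1 to 5, with a mean of 501 ± 87.4 CPM (SD, n = 5). The middle segments of the same rats held 347, 332, 295, 281 and 199.9 CPM (291 ± 57.5), and the proximal segments 215, 264, 233, 188 and 144 CPM (209 ± 45.5). Rat 5 was the lowest of the 5 rats in each segment, and no distal library overlapped with a middle or proximal library. The log2 fold change was -1.28 ± 0.0870 (approximate SE) for proximal against distal (edgeR, adjusted p = 1.51e-05) and -0.79 ± 0.0862 for middle against distal (adjusted p = 0.000714). Within rats the proximal minus distal difference ran from -1.56 to -1.14 log2 units.

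Mmp2, the gelatinase that Mmp14 activates, had a narrow range in distal tendon and a wide one elsewhere. Distal libraries stood at 1989, 1937, 2230, 2148 and 1752 CPM in rats 1 to 5, with a coefficient of variation of 9.30%. In the middle segment the values were 1675, 1471, 1202, 1120 and 674 CPM, a coefficient of variation of 30.9%. Proximal values were 1079, 1099, 1150, 759 and 594 CPM, and the means of the 3 segments were 2011 ± 187, 1228 ± 380 and 937 ± 246 CPM (SD, n = 5). All distal libraries exceeded all others, while middle and proximal libraries overlapped, with the middle segment of rat 5 below the proximal segments of rats 1 to 4. The log2 fold change was -1.16 ± 0.155 (approximate SE) for proximal against distal (edgeR, adjusted p = 0.000215) and -0.78 ± 0.154 for middle against distal (adjusted p = 0.00507). With the median level of the proximal-end genes, which overlaps with segment, as a covariate, the proximal-distal call was lost (-0.88 ± 0.279, edgeR, adjusted p = 0.0569). The approximate SE was then larger than the 0.155 of the main fit.

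Mmp3, the stromelysin, was the most variable of the 4 between animals. Distal levels were 85.6, 327, 172, 73.9 and 50.9 CPM in rats 1 to 5, a 6.43-fold range. Middle levels were 149.8, 148.7, 61.3, 23.7 and 11.8 CPM, and proximal levels 83.3, 63.9, 26.8, 12.2 and 8.37 CPM. The highest and lowest middle values differed 12.7-fold and the proximal ones 9.95-fold, so that the segments overlapped and the proximal library of rat 1 exceeded the distal libraries of rats 4 and 5. Means were 142 ± 113 CPM distally, 79.1 ± 66.6 CPM in the middle and 38.9 ± 33.1 CPM proximally (SD, n = 5). The log2 fold change for proximal against distal was -2.17 ± 0.373 (approximate SE, edgeR, adjusted p = 0.00123).

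The size of the Mmp3 difference depended on rat 1. Its proximal minus distal difference in log2 CPM was -2.36, -2.68, -2.58 and -2.59 in rats 2 to 5, but only -0.04 in rat 1, where the middle segment was higher than the distal one by 0.81. Without rat 1 the log2 fold change was -2.57 ± 0.142 (edgeR, adjusted p = 3.58e-05), and without its distal library alone it was -2.56 (adjusted p = 2.24e-05). For the other members rat 1 did not stand apart in this way, with differences of -0.88 for Mmp2, -1.15 for Mmp14 and -1.13 for Timp1. Without rat as a block Mmp3 did not pass (log2 fold change -1.87, edgeR, adjusted p = 0.0836). With the level of the proximal-end genes as a covariate it did not pass either (-1.62, edgeR, adjusted p = 0.130). The approximate SE was then 0.664, against 0.373 in the main fit.

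Timp1, the inhibitor, showed most of its fall between the distal and the middle segment. Distal libraries held 157, 196, 145, 163 and 139 CPM in rats 1 to 5, middle libraries 103, 103, 62.7, 60.6 and 75.3 CPM and proximal libraries 72.0, 80.1, 70.8, 63.6 and 74.3 CPM. Means were 160 ± 22.3, 80.9 ± 20.9 and 72.2 ± 5.96 CPM (SD, n = 5), and all distal libraries exceeded all others. Proximal libraries were the most alike, with a coefficient of variation of 8.26% against 25.9% in the middle. The log2 fold change was -1.01 ± 0.112 (approximate SE) for middle against distal (edgeR, adjusted p = 0.000714) and -1.14 ± 0.112 for proximal against distal (adjusted p = 5.22e-05). In the RefSeq gene table (assembly GRCr8) Timp1 lies within the span of Syn1, a synaptic vesicle gene, and use of strand in the counting is not stated in the sources used here. For the other members no overlapping gene was listed there.

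The stretches before the start sites of Mmp3 and Timp1 are shown because RefSeq promoter sequences (GRCr8) matched these 2 of the 4 members, the stromelysin and the inhibitor. Their levels were the least alike of the 6 pairs (Pearson r = 0.680 over 15 libraries), although both were lower at the proximal end. Each stretch is the 250 bases before the transcript start used in that table, read 5′ to 3′ on the gene's strand, at chr8:12925031-12925280 (plus strand) for Mmp3 and chrX:3771123-3771372 (minus strand) for Timp1. The counts were made on another build (rn6) and are not tied to these coordinates. Capitals mark matches, searched on both strands, to 4 short motifs: the AP-1 consensus TGAGTCA, an AP-1 variant TGAGTAA, the ETS core AGGAAG and the TATA box TATAAA.
Mmp3: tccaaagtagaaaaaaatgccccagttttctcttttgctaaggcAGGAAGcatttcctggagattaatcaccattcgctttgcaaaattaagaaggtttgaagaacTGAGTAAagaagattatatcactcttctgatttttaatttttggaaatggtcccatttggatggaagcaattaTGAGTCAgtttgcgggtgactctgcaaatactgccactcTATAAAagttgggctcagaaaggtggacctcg
Timp1: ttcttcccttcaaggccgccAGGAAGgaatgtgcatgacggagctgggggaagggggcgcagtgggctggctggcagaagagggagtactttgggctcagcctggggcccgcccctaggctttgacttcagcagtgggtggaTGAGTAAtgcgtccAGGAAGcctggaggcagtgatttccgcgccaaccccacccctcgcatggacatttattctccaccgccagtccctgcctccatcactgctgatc
The Mmp3 stretch held each of the 4 motifs, with the AP-1 consensus 71 to 65 bases and the TATA box 32 to 27 bases before the start. Its AP-1 variant lay 144 to 138 bases and its ETS core 206 to 201 bases before the start. In Timp1 the AP-1 variant, 108 to 102 bases before the start, was followed by an ETS core at 94 to 89 bases, and a further ETS core lay at 230 to 225 bases. Neither the AP-1 consensus nor the TATA box was found in the Timp1 stretch. Among 33469 promoters of the same length, 4.05% held the AP-1 consensus, 2.38% the AP-1 variant, 29.5% the ETS core and 12.9% the TATA box. An AP-1 motif of either form together with an ETS core, as in both stretches, was found in 1.89%. That combination is the one these stretches share, so its share among promoters is a background and not a test. These matches are letters in a window, not measured binding.

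The comparison of middle with distal tendon asked how much of the fall lay in the distal part of the tendon. All 4 members were lower in the middle segment by this test (edgeR, adjusted p under 0.05), where the share of all genes that passed in this direction was 11.6%. Mmp3 fell 2.34-fold, Timp1 2.01-fold, Mmp14 1.73-fold and Mmp2 1.71-fold. Middle libraries lay below every distal library for Mmp2, Mmp14 and Timp1, as for 7.49% of all genes. Within rats, Mmp2, Mmp14 and Timp1 were lower in the middle in 5 of 5 rats, as were 16.5% of all genes, and Mmp3 was lower in 4 of 5. The Mmp3 call (log2 fold change -1.23 ± 0.360, adjusted p = 0.0321) was the weakest. It was lost, at adjusted p = 0.0623 to 0.140, when rat 2, 3, 4 or 5, or the distal or middle library of any of these rats, was left out. It was also lost without rat as a block (log2 fold change -0.85, adjusted p = 0.499) and with only these segments in the fit (-1.14, adjusted p = 0.0877). Without the middle library of rat 5, which held the proximal-end genes at 12.1 CPM, Mmp2 (-0.68, edgeR, adjusted p = 0.0161), Mmp14 (-0.78, adjusted p = 0.00265) and Timp1 (-1.01, adjusted p = 0.00266) still passed.

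Between middle and proximal tendon the differences were smaller, and 0.140% of all genes passed in the lower direction. Mmp14 was the member that passed in the fit of all 15 libraries, with a log2 fold change of -0.48 ± 0.0859 (edgeR, adjusted p = 0.0439) and a lower proximal value in 5 of 5 rats (within-rat differences of -0.69 to -0.33). This call sat close to the threshold, and was lost without rat as a block (adjusted p = 0.240). With only these segments in the fit it was lost as well (adjusted p = 0.0973). It was also lost in 16 of 20 refits that left out a rat or a single library, at adjusted p = 0.0588 to 0.255. The 4 that kept it left out a distal library (rat 1 or rat 5), the middle segment of rat 5 or the proximal segment of rat 2. With the level of the proximal-end genes as a covariate the call was lost (edgeR, adjusted p = 0.667). It held in DESeq2 (-0.48, adjusted p = 3.35e-05), where 1170 genes passed for this step, and in limma (adjusted p = 0.0442). In edgeR it also held with DESeq2 size factors (adjusted p = 0.0496), without the filter (0.0480) and without the 10 most abundant genes (0.0444).

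For the other members this step did not pass in that fit. Mmp3 had a log2 fold change of -0.95 ± 0.356 (edgeR, adjusted p = 0.174) with a lower proximal value in 5 of 5 rats (-1.22 to -0.49), a sign shared in all rats by 9.16% of genes. It passed in DESeq2 (-0.94, adjusted p = 0.0486), in edgeR with only these segments in the fit (-0.95, adjusted p = 0.0464), without rat 1 (-0.98, adjusted p = 0.0355) and without the distal library of rat 1 (-0.95, adjusted p = 0.0133). Mmp2 had -0.38 ± 0.153 (adjusted p = 0.195), also lower in 5 of 5 rats. Timp1 had -0.14 ± 0.111 (adjusted p = 0.519), lower in 3 of 5 rats, with within-rat differences from -0.51 to 0.17. Thus the order of mean levels was distal, middle, proximal for each member. Which member passed between the neighbours middle and proximal depended on the fit. In edgeR it was Mmp14 with all 15 libraries and Mmp3 with these segments only, while DESeq2 called both.

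**Figure D2:**
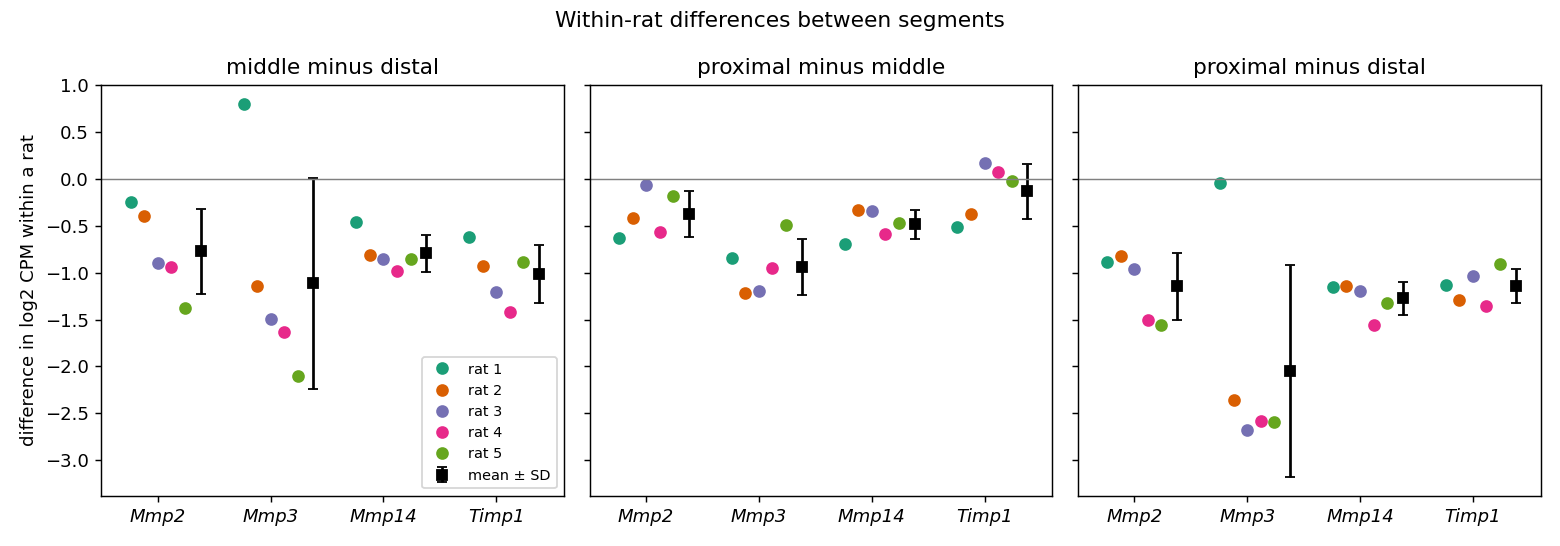
Differences in log2 CPM within each rat between middle and distal, proximal and middle, and proximal and distal segments, with coloured points for the 5 rats and black squares at the mean with bars of 1 SD. Values below 0 are lower in the first-named segment. Rat 1 lies near 0 for Mmp3 in the proximal minus distal panel (-0.04), apart from the other 4 rats at -2.68 to -2.36.

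The part of the distal-to-proximal difference already reached in the middle segment varied between genes and rats. For Timp1 it was 54.6%, 71.6%, 117%, 105% and 97.9% in rats 1 to 5. For Mmp14 the same measure was 39.9%, 71.0%, 71.6%, 62.7% and 64.4%, and for Mmp2 28.2%, 48.6%, 93.4%, 62.6% and 88.3%. Rat 1 had the lowest value of the 5 rats for each of these genes, so by this measure its middle segment lay nearest to the distal level. For Mmp3 the share was 48.3% to 81.1% in rats 2 to 5 and has no meaning in rat 1, where both ends were nearly equal. The contrast of middle tendon with the average of proximal and distal tendon passed for 0 of 4 members and 0 of 15037 genes (edgeR). At an unadjusted p under 0.05 (edgeR) there were 2316 genes, more than the share of 0.05 expected if no gene differed. DESeq2 called 582 genes in that contrast. Timp1 came nearest among the members, with a log2 value of -0.44 ± 0.0981 below the mean of both ends (edgeR, adjusted p = 0.139, DESeq2 adjusted p = 0.00484).

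Ratios between 2 members within a library do not depend on how libraries are scaled, and they show whether the genes fell by unequal amounts. The 6 pairs were tested by exact two-sided permutation of the segment labels within each rat over all arrangements, with the difference between the ends as the statistic, and p-values were adjusted by Benjamini-Hochberg over the 6 pairs. Ratios are read here only as changes between segments, since counts of different genes also scale with transcript length.

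The enzyme-to-inhibitor ratio of Mmp2 to Timp1 was nearly equal at both ends. Its log2 value was 3.66 ± 0.231 distally, 3.90 ± 0.444 in the middle and 3.66 ± 0.402 proximally (SD, n = 5). The difference between the ends averaged 0.00 but ran from -0.65 in rat 5 to 0.48 in rat 2 (exact permutation p = 1, adjusted p = 1), and the test does not show that the ends are alike. The ratio of Mmp14 to Timp1 was 1.64 ± 0.195, 1.86 ± 0.357 and 1.51 ± 0.317 on the log2 scale. Its difference between the ends was -0.13 ± 0.213 (adjusted p = 0.459), and in the middle the ratio was above the distal one in 5 of 5 rats, by 0.22 ± 0.172, which was not tested. The ratio of Mmp2 to Mmp14, the gelatinase to its activator, differed between the ends by 0.13 ± 0.226 (adjusted p = 0.393), from -0.23 to 0.33.

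Mmp3 fell further than the other 3 members in 4 of 5 rats. Relative to Mmp2 it was lower at the proximal than at the distal end, the log2 ratio of Mmp2 to Mmp3 rising from 4.15 ± 1.04 to 5.06 ± 1.10 (difference 0.91 ± 1.02, exact permutation p = 0.0270, adjusted p = 0.126). The log2 ratio of Mmp3 to Mmp14 changed by -0.78 ± 1.07 (exact permutation p = 0.0628, adjusted p = 0.126) and that of Mmp3 to Timp1 by -0.91 ± 1.15 (p = 0.0532, adjusted p = 0.126). None of these passed after adjustment with all 5 rats. Rat 1 went the opposite way in all 3, by 0.84 to 1.11 log2 units. Without rat 1 the same ratios differed by 1.35, -1.25 and -1.41 log2 units between the ends, each with adjusted p = 0.00309 (exact permutation). With 4 rats this is the lowest adjusted p that 3 tied pairs can reach, so it does not grade the strength of the difference. Rat 1 was singled out after its values had been seen.

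**Figure D3:**
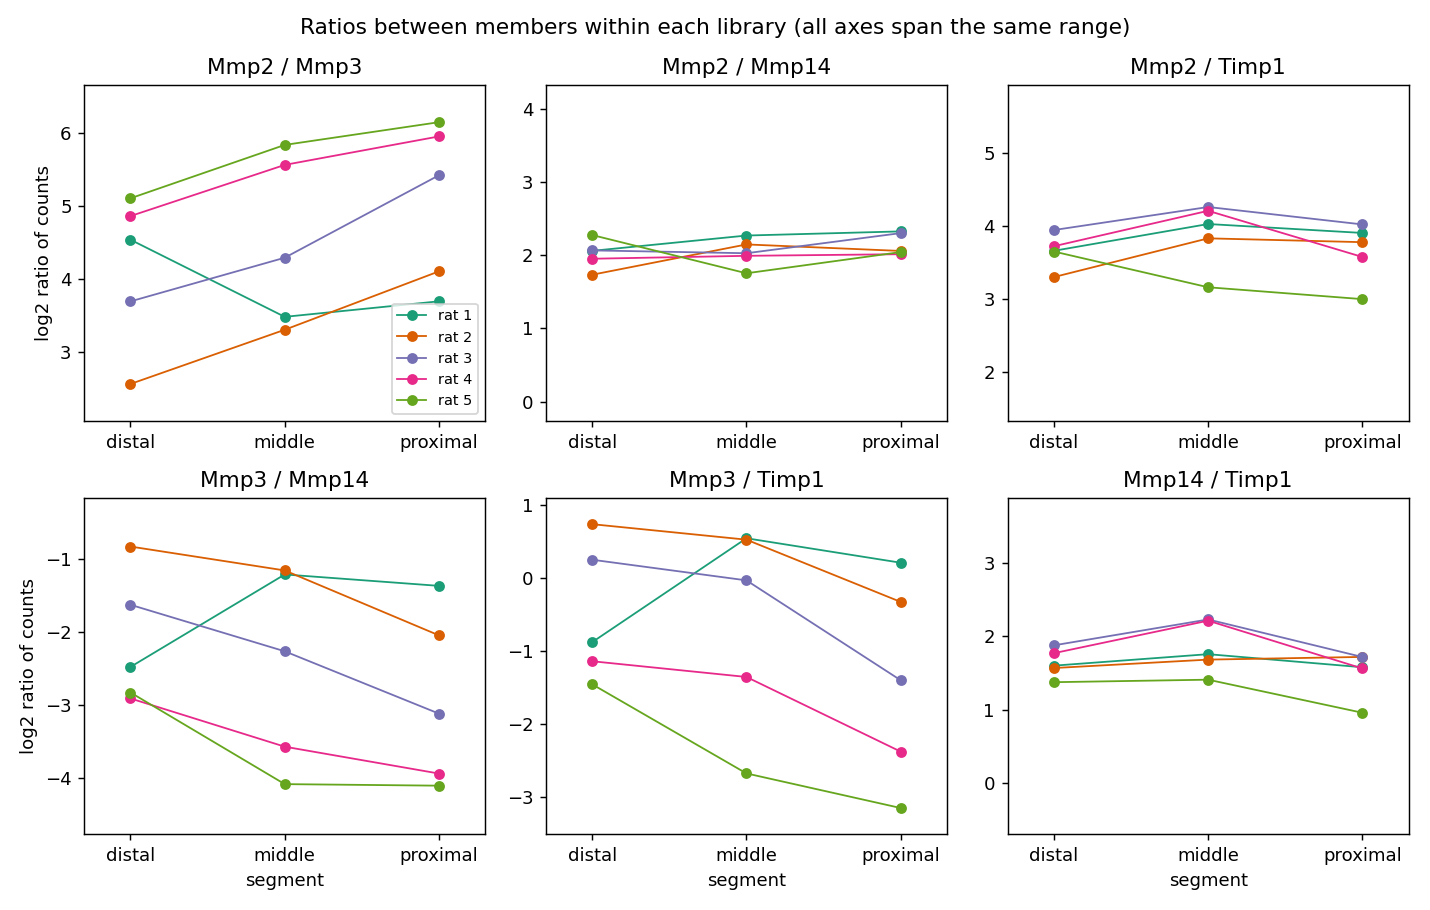
Log2 ratios of counts between 2 members in each library, by segment, with 1 line per rat and the same span on every axis. The ratios among Mmp2, Mmp14 and Timp1 stay within narrower bands than the 3 ratios with Mmp3. Those 3 spread widely between rats and change in the opposite direction in rat 1.

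Differences between animals were unequal among the members. Of the variance of log2 CPM over the 15 libraries, segment took 83.7% for Timp1, 78.4% for Mmp14, 65.6% for Mmp2 and 31.1% for Mmp3. Rat took 10.1%, 19.2%, 24.3% and 58.5%, in the same gene order. Over all genes tested the median shares were 31.0% for segment and 31.1% for rat, and 90.4% of genes had a smaller share for rat than Mmp3. Averaged over the 3 segments, Mmp3 stood 1.43 log2 units above the segment mean in rat 2 and 0.91 above in rat 1, and at -0.96 in rat 4 and -1.66 in rat 5. Rat 5 was also the lowest for Mmp2 (-0.54) and Mmp14 (-0.49), but not for Timp1, where it stood at -0.07 and rats 3 and 4 at -0.16 and -0.17.

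**Figure D4:**
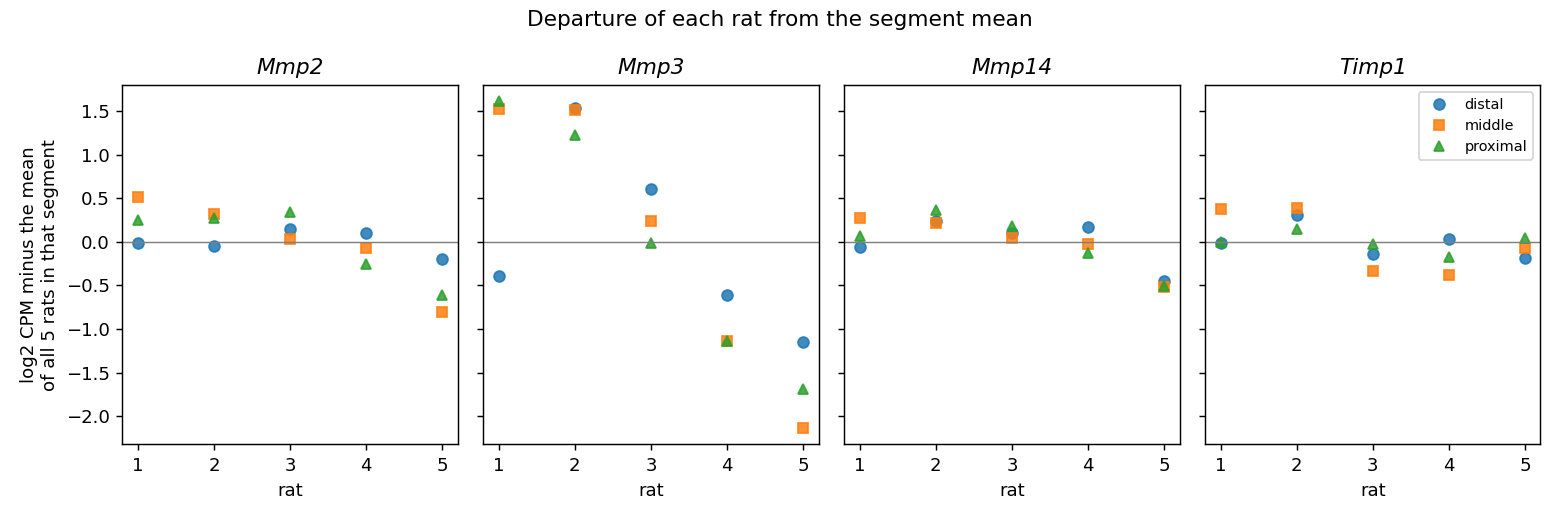
Log2 CPM of each library minus the mean of the 5 rats in that segment, by rat, with circles for distal, squares for middle and triangles for proximal segments. Mmp3 departs by more than 1 log2 unit in most libraries of rats 1, 2, 4 and 5, while Timp1 stays within 0.5 of the mean.

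Levels of the 3 enzymes also moved together between animals of the same segment. Over the 15 libraries, which share 5 animals, log2 CPM of Mmp2 and Mmp14 had Pearson r = 0.957 and Spearman rho = 0.961, the closest pair of the 4. Of the other genes tested, 0.213% were closer to Mmp14 than Mmp2 was, and 0.259% were closer to Mmp2 than Mmp14 was. The shares were larger for the other pairs. For Mmp3 and Timp1, 10.4% of genes were closer to Mmp3 than Timp1 was, and 12.4% were closer to Timp1 than Mmp3 was. Mmp3 had r = 0.847 with Mmp2 and 0.814 with Mmp14, and Timp1 had r = 0.863 with Mmp14, 0.814 with Mmp2 and 0.680 with Mmp3. After the segment means were removed, r was 0.886 for Mmp2 and Mmp14, 0.836 for Mmp3 and Mmp14 and 0.823 for Mmp2 and Mmp3. For Timp1 it was then 0.610 with Mmp3, 0.450 with Mmp14 and 0.383 with Mmp2. These correlations describe libraries that share animals and depth, and they carry no test. Those with the segment means removed were not set beside values for other genes. The genes closest to each member carry no symbol in the files, and none is named.

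The proximal-end genes were chosen for being high proximally in these data, so a negative correlation with distal-high genes over all libraries follows from that choice and is not given. After segment means were removed, Pearson r with their median log2 CPM over the 15 libraries was -0.60 for Mmp2, -0.65 for Mmp3, -0.62 for Mmp14 and -0.22 for Timp1, as a description of libraries that include those used to choose the genes. With that median as a covariate beside segment and rat, Mmp14 (log2 fold change -1.18, edgeR, adjusted p = 0.00434) and Timp1 (-1.38, adjusted p = 0.00449) still passed between proximal and distal tendon. Mmp2 and Mmp3 did not, as given above. The covariate overlaps with segment, and 2261 genes passed with it against 6300 (41.9%) without it. The proximal segment of rat 2 held these genes at 0.579 CPM, within the distal range, and there Mmp2, Mmp3, Mmp14 and Timp1 differed from the distal segment by -0.82, -2.36, -1.14 and -1.29 log2 units. The Mmp2 and Mmp14 differences were the smallest of all rats, while those of Mmp3 and Timp1 were not. Whether this goes with the low level of the proximal-end genes was not tested.

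**Figure D5:**
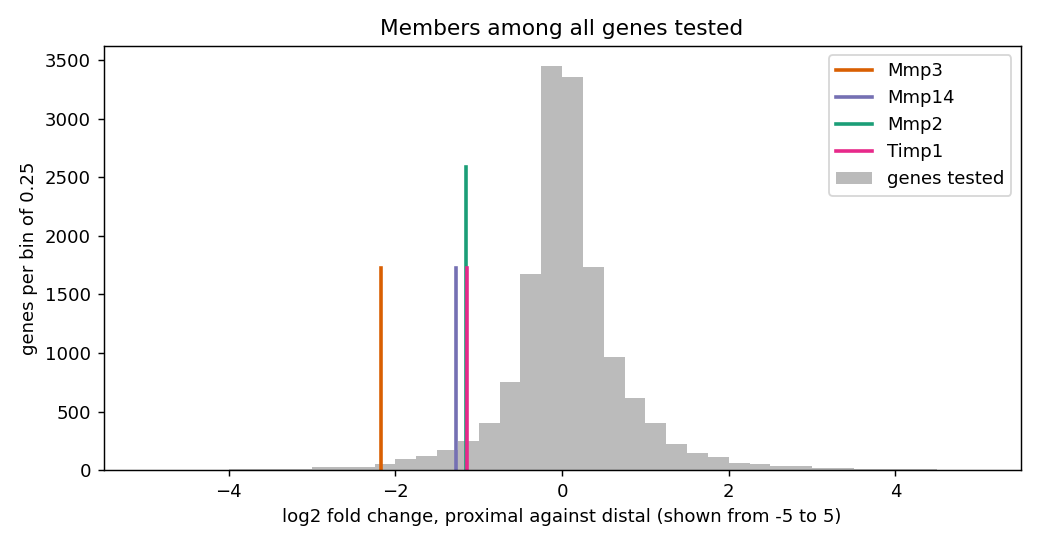
Number of genes per bin of 0.25 in log2 fold change, proximal against distal, for the genes tested between -5 and 5, with a vertical line for each member (the heights of the lines carry no meaning). Mmp3 lies at -2.17, Mmp14 at -1.28, Mmp2 at -1.16 and Timp1 at -1.14, on the distal-high side of the distribution.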

How the data were processed

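RNA from 15 tendon segments (3 segments of 5 rats) was sequenced as poly(A)-selected paired-end libraries. The authors deposited unnormalized read counts for each Ensembl gene. The submitters' processing notes list rn6 as genome build and, as tools, HISAT2 2.2.1, featureCounts 2.0.1, fastp 0.19.10 and SAMtools 1.9. Options, the annotation and use of strand are not given in the sources used. The symbols of the 4 members were taken with their identifiers. The RefSeq gene table pairs 0 identifiers with symbols, so the lists of related proteinases, inhibitors, substrates and cell type markers, and the genes most like each member, could not be named or counted.

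The analysis used edgeR 4.0.16 in R 4.3.3: filterByExpr by segment (15037 genes), TMM scaling and a robust quasi-likelihood model with segment and rat over all libraries, with Benjamini-Hochberg adjusted p over all genes and a threshold of 0.05. Standard errors were derived from the fold change and F statistic and are approximate. Log2 CPM used a prior count of 2, and ratios added 0.5 to counts. Libraries of the same number come from the same animal, per the labels. Their deviations from segment means correlated above 0.1 in 13 of 15 pairs. The count for pairs of different rats is not given, so this is not a check of the labels. Alternatives used limma 3.58.1 and DESeq2 1.42.0. Data were simulated once for proximal against distal (15037 genes), with 100 genes changed 2-fold and 100 changed 4-fold in the proximal libraries only. Of these, 73% and 93% were called, with 3.49% false among all calls. Far fewer genes changed there than the 41.9% called in the data, so these shares need not hold for the data. The text names all 4 members. The members, lists and alternatives were chosen with earlier results of these data known.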

Additional observations from a re-analysis of the deposited data

Results flagged for a closer look

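Of 30 sets of 5 libraries screened (levels and ratios of the 4 members in each segment), 1 held a library far from the others, where chance gives about 5% of sets. In proximal tendon the log2 ratio of Mmp14 to Timp1 was 0.96 in rat 5 and 1.56 to 1.72 in the other 4 rats, a gap of 0.793 of the whole range. In that library Mmp14 was the lowest of the 5 proximal values, at 144 CPM, and Timp1 the second highest, at 74.3 CPM. Without rat 5 or any other rat, this ratio still did not pass between the ends (adjusted p = 0.405 to 0.715, exact permutation).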

How the results depend on the processing

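The falls of Mmp14 and Timp1 from distal to proximal and to middle tendon, and that of Mmp2 to middle tendon, kept their direction and passed in all 28 settings. The fall of Mmp2 to proximal tendon passed in 27 and that of Mmp3 in 26. With no replicate block, calls were lost for Mmp3 at -1.87 (proximal against distal, adjusted p = 0.0836) and -0.85 (middle against distal, adjusted p = 0.499) and for Mmp14 at -0.48 (proximal against middle, adjusted p = 0.240), Mmp3 was at 0.0888 (middle against both ends), and 2303 genes passed for middle against distal and 0 for proximal against middle. The block changed no other member's call. With the replicate block and the proximal-end level as covariate, 4 calls were lost: Mmp2 and Mmp3 at -0.88 and -1.62 (proximal against distal, adjusted p = 0.0569 and 0.130), Mmp3 at -1.07 (middle against distal, adjusted p = 0.0599) and Mmp14 at -0.41 (proximal against middle, adjusted p = 0.667), with 2261 genes for proximal against distal and 0 for proximal against middle. With the 2 compared segments alone and the replicate block, Mmp3 lost its call for middle against distal (-1.14, adjusted p = 0.0877) and passed for proximal against middle (-0.95, adjusted p = 0.0464), Mmp14 lost its call there (-0.48, adjusted p = 0.0973), and 19 genes passed for proximal against middle. Without the filter, Mmp3 was at -1.25 (middle against distal, adjusted p = 0.0598) and 1 gene passed for the middle against both ends. Limma gave Mmp3 -1.08 (middle against distal, adjusted p = 0.0521). DESeq2 gave Mmp3 -0.94 (proximal against middle, adjusted p = 0.0486), Timp1 -0.44 (middle against both ends), and 1170 and 582 genes for those contrasts.

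Leaving out a rat or a library gave Mmp3 values of -1.61 to -1.02 (middle against distal), -1.22 to -0.73 (proximal against middle) and -0.33 to 0.04 (middle against both ends, above 0 without rat 5, at 0.00374, its middle library, at 0.00768, or the proximal library of rat 1, at 0.0363). Mmp14 ran from -0.52 to -0.41 (proximal against middle). Counts of genes ran from 1849 to 3780 (middle against distal, lowest without rat 4), 0 to 536 (proximal against middle, highest without the proximal library of rat 2) and 0 to 11 (middle against both ends). With a rat left out, log2 ratios ran from 0.71 to 1.35 (Mmp2 to Mmp3), -1.25 to -0.60 (Mmp3 to Mmp14), -1.41 to -0.72 (Mmp3 to Timp1) and -0.12 to 0.16 (Mmp2 to Timp1, -0.0610 without rat 1, -0.119 without rat 2 and -0.0191 without rat 3). Adding 5 to counts gave -0.00280 for the last. The causes of these changes were not tested.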
